A study of Mus musculus with 12 samples.

Results

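The LSD1 inhibitor given alone was set against vehicle in 4 of the 12 ATAC-seq libraries of the series, chosen by their labels. They were 2 libraries of cells treated for 2 days with 200 nM GSK-LSD1 (LSD1i) and 2 of cells that received DMSO for the same time (Vehicle), labelled as biological replicates. Cells of every group were granulocyte-monocyte progenitors from bone marrow of C57BL6 mice that carry ER-HOXA9, a fusion of the estrogen receptor with HOXA9, and they grew with stem cell factor and beta-estradiol. The hormone, which keeps such fusions active, was thus present in LSD1i and Vehicle cells alike. Age, sex and whether the cells form 1 clone are not given in the labels. The other groups, used here only as further libraries, were Combo (200 nM GSK-LSD1 with 5 uM mercaptopurine and 5 uM cerulenin), CER (5 uM cerulenin), 6MP (5 uM mercaptopurine) and Day0 (untreated, day 0), each with 2 libraries.

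LSD1, encoded by Kdm1a, is a histone demethylase that works in the CoREST repressor complex together with histone deacetylases. In blood progenitors the transcription factors GFI1 and GFI1B recruit it to enhancers and promoters through their SNAG domains, and it holds back genes of maturing myeloid cells. GSK-LSD1 binds the enzyme's cofactor irreversibly. ATAC-seq reads out where the Tn5 transposase can reach the DNA, so a region with more fragments at its summit is called opened here and one with fewer is called closed.

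The promoters of 7 genes are shown first, because their open regions changed with the inhibitor and lie over the gene start. They were chosen after their values were seen. Each is the RefSeq sequence of the 250 bases before the start of the gene on GRCm38.p6, the assembly also called mm10, read 5' to 3' on the strand of the gene, and capitals mark letters that match 1 of 16 motifs searched on both strands. Mmp8 (chr9:7558179-7558428, plus strand), which encodes the neutrophil collagenase, Tarm1 (chr7:3502625-3502874, minus strand), an activating receptor of myeloid cells, Il16 (chr7:83655496-83655745, minus strand), a cytokine, and P2rx7 (chr5:122643677-122643926, plus strand), an ATP-gated ion channel, opened.
Mmp8: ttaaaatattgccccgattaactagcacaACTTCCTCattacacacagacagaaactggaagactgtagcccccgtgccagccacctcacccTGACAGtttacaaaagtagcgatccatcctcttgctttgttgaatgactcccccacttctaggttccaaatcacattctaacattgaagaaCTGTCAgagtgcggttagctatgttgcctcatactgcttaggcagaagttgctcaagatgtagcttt
Tarm1: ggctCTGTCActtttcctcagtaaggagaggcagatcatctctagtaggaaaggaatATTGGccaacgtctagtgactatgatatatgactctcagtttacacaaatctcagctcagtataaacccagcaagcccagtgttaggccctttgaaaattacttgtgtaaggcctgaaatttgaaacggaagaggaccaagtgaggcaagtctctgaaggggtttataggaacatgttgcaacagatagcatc
Il16: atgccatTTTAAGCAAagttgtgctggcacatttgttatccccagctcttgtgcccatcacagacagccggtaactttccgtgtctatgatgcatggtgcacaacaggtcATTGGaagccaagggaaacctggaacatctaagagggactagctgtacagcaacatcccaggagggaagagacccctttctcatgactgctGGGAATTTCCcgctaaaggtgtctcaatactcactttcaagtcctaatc
P2rx7: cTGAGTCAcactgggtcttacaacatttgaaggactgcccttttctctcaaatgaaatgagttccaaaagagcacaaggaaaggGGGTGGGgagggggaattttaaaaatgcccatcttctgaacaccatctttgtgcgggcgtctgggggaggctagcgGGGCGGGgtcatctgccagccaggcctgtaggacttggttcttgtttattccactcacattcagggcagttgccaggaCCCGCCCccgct

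Lipt1 (chr1:37872100-37872349, plus strand), a lipoyltransferase of mitochondria, Synrg (chr11:83964181-83964430, plus strand), a partner of clathrin adaptors, and Chac1 (chr2:119350992-119351241, plus strand), an enzyme that degrades glutathione, closed.
Lipt1: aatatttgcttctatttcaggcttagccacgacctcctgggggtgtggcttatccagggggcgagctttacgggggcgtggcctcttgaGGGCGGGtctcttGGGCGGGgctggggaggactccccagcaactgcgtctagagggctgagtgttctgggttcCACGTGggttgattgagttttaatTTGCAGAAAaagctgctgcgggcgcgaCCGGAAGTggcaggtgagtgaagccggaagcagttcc
Synrg: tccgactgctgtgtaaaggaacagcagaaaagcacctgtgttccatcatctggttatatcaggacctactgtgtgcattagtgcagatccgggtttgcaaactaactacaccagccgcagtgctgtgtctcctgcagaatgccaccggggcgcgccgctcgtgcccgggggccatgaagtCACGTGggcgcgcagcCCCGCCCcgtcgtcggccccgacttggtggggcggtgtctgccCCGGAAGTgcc
Chac1: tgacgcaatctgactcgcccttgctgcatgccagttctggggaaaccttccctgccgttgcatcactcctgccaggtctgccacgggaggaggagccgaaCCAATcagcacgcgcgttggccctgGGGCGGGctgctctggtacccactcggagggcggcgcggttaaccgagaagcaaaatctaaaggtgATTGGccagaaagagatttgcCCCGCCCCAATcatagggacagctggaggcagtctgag

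The 4 opened promoters shown held 2 to 6 CpG dinucleotides, and the 3 closed ones held 13 to 19. The Mmp8 sequence carries ACTTCCTC, the PU.1 core read on the other strand, 221 bases before the gene start, and the Il16 sequence carries the NF-kB match GGGAATTTCC 49 bases before it. Lipt1 and Synrg both carry the promoter ETS core CCGGAAGT, at 37 and 11 bases before the start, and an E-box CACGTG, at 88 and 70 bases. Over 300-base windows around gene starts, 45 windows of opened and 164 of closed promoters could be compared with 9777 windows of tested promoters that were not called. They belong to 41, 137 and 8434 genes, so some genes count more than once, and windows of a gene can overlap. Windows on chromosome 18 were left out of all these sets. Median GC content was 51.7% at opened, 61.3% at closed and 62% at uncalled promoters, and median CpG number was 8, 18 and 22. Opened promoters thus had fewer CpG than the other tested promoters, and closed ones lay near them.

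Among the motifs, GAGGAAGT (PU.1 core) was found in 11.1% of opened windows (5 of 45), in 3.05% of closed ones (5 of 164), in 3.39% of uncalled ones and in 3% of all 21006 promoter windows. TGANTCA (AP-1) was found in 13.3% of opened and 5.49% of closed windows, against 4.24% of uncalled and 6.99% of all windows. CCGGAAGT (ETS promoter core) was found in 0 of 45 opened and 21 of 164 closed windows, which is 12.8%, against 9.8% of uncalled and 5.21% of all windows. It shares GGAAGT with the PU.1 core but not the bases before it, so no site counts for both. GGGCGGG (SP) was found in 20% of opened, 58.5% of closed, 51.2% of uncalled and 34.2% of all windows, and CACGTG (E-box) in 2.22%, 14%, 10.8% and 7.9% of them. AATCANNGC, the GFI1 motif, was found in 3 of 45 opened and 2 of 164 closed windows, which is 6.67% and 1.22%, against 3.49% of uncalled and 3.54% of all windows. The motif CCAAT (NF-Y) was found at nearly the same rate in all of them, 40% of opened, 36.6% of closed, 38.8% of uncalled and 38.2% of all windows. These shares describe letters in promoter windows, and with 45 opened windows each one adds 2.22 percentage points. No test was made on them.

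The 4 libraries were alike in size. LSD1i libraries held 50733 and 56398 called peaks and Vehicle libraries held 51721 and 53839. The smallest background, used as depth, was 4.07 and 4.29 fragments per position in LSD1i and 4.02 and 4.11 in Vehicle, and the median summit had 65 and 67 fragments in LSD1i and 66 and 67 in Vehicle. At regions shared by all 12 libraries the median summit stood 28.5 and 31.9 times over background in LSD1i and 33.1 and 34.1 times in Vehicle, so enrichment was lower in both LSD1i libraries. Its part in the results was not tested. Of the 7 promoters of granulocyte-monocyte progenitor markers, 5 had a peak in each LSD1i library and 6 in each Vehicle library, and the promoter of Elane had none in any of the 4. Their summed pileup over depth was 296 and 326 in LSD1i, against 379 and 417 in Vehicle. The neutrophil markers had peaks at 5 and 4 of 7 promoters in LSD1i and at the same numbers in Vehicle. Their sums were 83.5 and 93.7 in LSD1i, against 68.4 and 54.3 in Vehicle. These sums include Mmp8, whose promoter had 196 and 243 fragments in LSD1i, against 84 and 92 in Vehicle. They therefore do not show a gain at the other neutrophil markers. Monocyte markers had peaks at 4 and 5 of 5 promoters in LSD1i (93.9 and 138) and at 3 and 4 in Vehicle (93.5 and 120), and dendritic markers at 2 of 5 in each library (193 and 195 in LSD1i, 194 and 222 in Vehicle), with Cd83, Ciita and Zbtb46 at none. Markers of erythroid cells and megakaryocytes had peaks at 4 of 6 promoters in each LSD1i library and 5 in each Vehicle library. At most 2 of 5 mast cell, 2 of 5 B cell, 1 of 6 T and NK cell and 1 of 5 stromal promoters had a peak in any of the 4 libraries, with Cd3e, Cd4, Pax5, Cpa3 and Cdh5 at none.

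Opened regions were weak in Vehicle and lay far from genes, at a median of 30102 bases from a gene start. Closed regions were strong in Vehicle and lay at 9908 bases, near the 12603 bases of tested regions that were not called. Of closed regions 21.7% lay within 1 kb of a gene start, against 27% of those not called and 5.02% of opened ones. Of 41324 regions with a peak in all 4 libraries, 1654 opened (4.00%) and 847 closed (2.05%) with GSK-LSD1 (limma on log2 summit signal, Benjamini-Hochberg adjusted p under 0.05 over all of them, one fit of 12 libraries). Summit signal is log2 of the fragments at a region's highest summit over the depth of its library, centred on the regions that all libraries share. The median opened region had 90 and 111 fragments in LSD1i, against 49 and 57 in Vehicle. The median closed region had 96 and 114 fragments in LSD1i, against 179 and 179 in Vehicle. Both LSD1i libraries were about level between the 2 kinds of region, while the Vehicle libraries were far apart. The regions were chosen by the difference between these same libraries. Low Vehicle values at opened regions and high ones at closed regions are therefore partly set by the choice. In bulk libraries, more cells with an open site and a wider opening in each cell cannot be told apart.

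The median difference was 0.97 (log2) at opened and -0.65 at closed regions, 754 opened regions and 75 closed ones changed by 1 or more, and the extremes were 2.63 and -1.66. In all 1654 opened regions both LSD1i libraries stood above both Vehicle libraries, an order that 25.5% of tested regions showed. In all 847 closed regions both stood below, as in 29.7% of tested regions. The counts rest on how the libraries are scaled. By depth alone, without centring, 169 opened and 31 closed, and the median over all tested regions was -0.19, against -0.04 with centring. Leaving out the centring moves the differences of all regions alike, so closures become larger and openings smaller. The Mmp8 promoter differs by 1.27 by depth alone, against 1.43 with centring, and the Lipt1 promoter by -0.92, against -0.76. Yet closed calls fell from 847 to 31. Without centring, differences in level between replicates also enter the spread of the fit, which uses all libraries. Before centring, the median log2 signal at shared regions was 4.082 and 5.144 in 6MP and 5.027 and 4.524 in CER. It was 4.832 and 4.996 in LSD1i and 5.049 and 5.091 in Vehicle. The parts of these offsets and of small changes in the lost calls were not tested. Of the 95 called regions named by the rules of choice 27 stayed past the threshold by depth alone, among them the 20 with the largest changes.

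Single libraries moved these counts too. There were 506 opened and 140 closed regions without LSD1i replicate 1, 502 and 167 without LSD1i replicate 2, 896 and 351 without Vehicle replicate 1, and 2014 and 1401 without Vehicle replicate 2. Of the 1654 opened and 847 closed regions, 345 and 54 stayed past the threshold in all 4 omissions. Vehicle replicate 1 is the one library of these 4 whose name carries the letter R, which the sources used here do not explain. With that letter as a term in the fit, 1586 regions opened and 873 closed, of which 1405 and 645 were among the calls above.

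Gene models without an established name set aside, the 10 regions with the largest rises had 15 to 74 fragments in Vehicle and over 60 in each LSD1i library. Near Calhm1, which encodes a voltage-gated channel, the summit had 103 and 167 fragments in LSD1i, against 21 and 25 in Vehicle, a rise of 2.63 ± 0.25 (log2, SE, n = 2 each; limma adjusted p = 7.66e-08). In intron 1 of 52 of Dock4 (chromosome 12, 40521928 to 40523207), a guanine nucleotide exchange factor for small GTPases, it had 233 and 294 fragments in LSD1i, against 58 and 40 in Vehicle (2.56 ± 0.21, limma adjusted p = 3.30e-09). In exon 4 of 8 of Dusp22 (chromosome 13, 30694875 to 30696588), a dual-specificity phosphatase, it had 110 and 114 fragments in LSD1i, against 17 and 25 in Vehicle (2.56 ± 0.28, limma adjusted p = 7.66e-07). That the groups do not overlap was a condition of the choice, and the spread within each pair was small beside the difference.

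At the promoter of Epha2 (chromosome 4, 141299149 to 141300633), a receptor tyrosine kinase for ephrins, the summit had 306 and 312 fragments in LSD1i, against 74 and 73 in Vehicle, a rise of 2.19 ± 0.18 (limma adjusted p = 3.30e-09). In intron 1 of 69 of Csmd1, a large membrane protein that regulates complement, it had 178 and 236 fragments in LSD1i, against 52 and 46 in Vehicle (limma adjusted p = 4.74e-09). Near Ndufa8, a subunit of respiratory complex I, it had 109 and 121 fragments in LSD1i, against 16 and 29 in Vehicle (2.53 ± 0.28). The replicates of Epha2 differed by fewer than 10 fragments in either group. The other 4 of the 10 largest rises, each at a different gene, were in intron 2 of 26 of Tanc1, a scaffold protein of synapses (68 and 89 in LSD1i, against 16 and 15 in Vehicle), near BC049739 (184 and 233, against 31 and 65), near Grap, an adaptor of receptor signalling (100 and 133, against 20 and 33), and in intron 1 of 10 of Hunk, a protein kinase (75 and 94, against 15 and 24). All 10 stayed past the threshold when any 1 library was left out.

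The 10 largest falls, chosen in the same way, were smaller in size. In intron 2 of 2 of Bri3bp (chromosome 5, 125451983 to 125453193) the summit had 64 and 92 fragments in LSD1i, against 212 and 252 in Vehicle, a fall of 1.48 on the log2 scale (SE 0.18, limma adjusted p = 3.75e-06). In intron 1 of 3 of Wbp1l, whose product binds WW domains, it had 21 and 29 fragments in LSD1i, against 61 and 106 in Vehicle (-1.59 ± 0.24, limma adjusted p = 7.25e-05). At the promoter of Rnase11, a ribonuclease of the RNase A family, it had 39 and 32 fragments in LSD1i, against 100 and 115 in Vehicle (-1.49 ± 0.24, limma adjusted p = 0.000123). Bri3bp lost fragments from a strong summit, whereas the Wbp1l and Rnase11 sites were weaker in both groups.

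Near Eif4h, a translation initiation factor, the summit had 33 and 43 fragments in LSD1i, against 104 and 99 in Vehicle (-1.32 ± 0.21, limma adjusted p = 0.000117). Near Coa8, an assembly factor of cytochrome c oxidase, it had 17 and 20 fragments in LSD1i, against 48 and 68 in Vehicle (-1.52 ± 0.26). Those 5 falls held in every omission of 1 library. The other 5 of the 10 did not hold in all. The regions of Cdk17, a cyclin-dependent kinase (16 and 28 fragments in LSD1i, against 51 and 85 in Vehicle), and Umad1 (29 and 49, against 79 and 126) lost the call without LSD1i replicate 1, with limma adjusted p = 0.116 and 0.0944. Ube2d3, a ubiquitin-conjugating enzyme (22 and 15, against 42 and 59), lost it without Vehicle replicate 2 or LSD1i replicate 2 (largest adjusted p = 0.374). Stag1, a cohesin subunit (19 and 26, against 69 and 53), lost it without Vehicle replicate 1 or LSD1i replicate 1 (largest 0.0697). Rere, a transcriptional co-repressor (16 and 19, against 42 and 50), lost it without either LSD1i library (largest 0.0676).

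**Figure D1:**
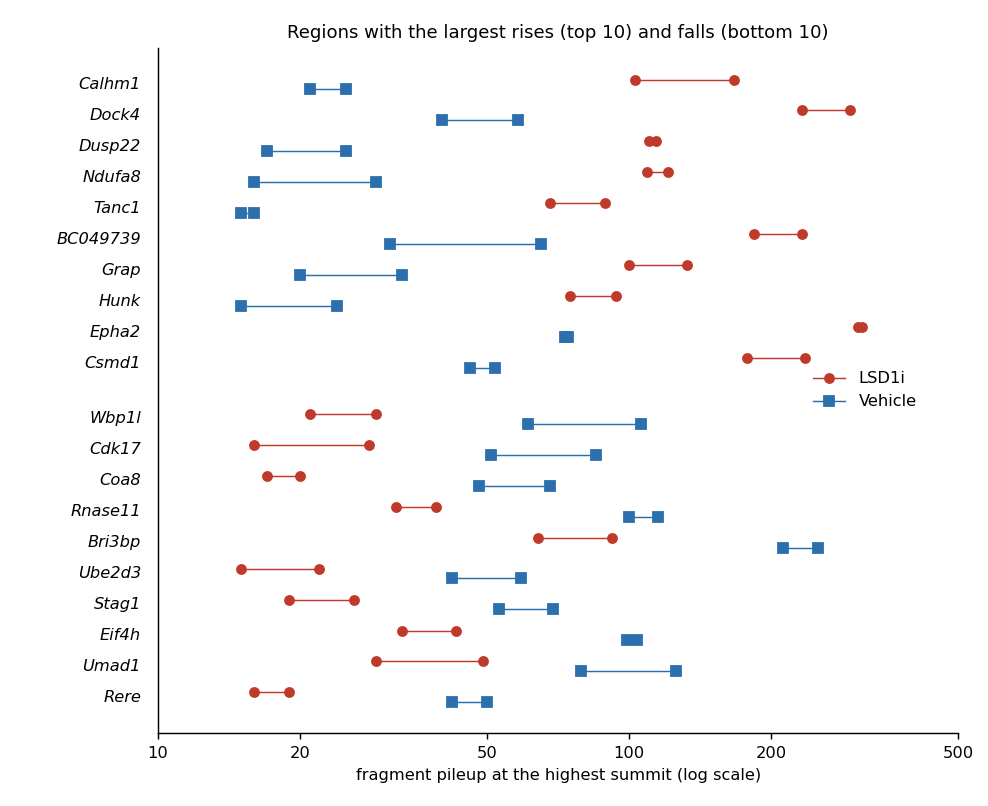
Fragments at the highest summit (log scale) in each LSD1i library (red circles) and each Vehicle library (blue squares) for the 10 regions with the largest rise and the 10 with the largest fall, 1 region a gene; a line joins the 2 libraries of a group. The groups do not overlap at any of them, which was a condition of the choice. Epha2 stands at 306 and 312 fragments in LSD1i, against 74 and 73 in Vehicle.

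The limma test needs a peak in all 4 libraries, so sites that gained a peak altogether were counted separately. A peak was called in both LSD1i libraries and neither Vehicle library at 2197 of 65101 regions, and in both Vehicle libraries and neither LSD1i library at 1629. Of these sets, 3.5% and 3.44% lay within 1 kb of a gene start. Most held weak peaks: the median LSD1i-only region had 24 and 29 fragments, and the median Vehicle-only region had 23 and 25, near the smallest called summit of 13 fragments in each library. The part of counting error in which of them were called was not tested.

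Some gains were strong all the same. From the authors' deposited table, regions with a peak in both LSD1i libraries were ranked by fold, gene models without an established name set aside. The 12 genes with the largest folds included 11 whose region had no peak in either Vehicle library. A large fold goes with few Vehicle fragments, so the missing Vehicle peaks are no separate result. The region in intron 5 of 8 of Ptgfrn, a membrane protein of the immunoglobulin superfamily, had 117 and 123 fragments in LSD1i, and the authors' deposited table gives a log2 fold of 3.64. The region in intron 1 of 9 of Epn2, an endocytic adaptor, had 144 and 191 fragments in LSD1i (3.52 in the authors' deposited table). The region in intron 1 of 12 of Arhgef37, a guanine nucleotide exchange factor, had 186 and 220 fragments in LSD1i (3.41 in the authors' deposited table). All of these stood far above the weakest called summit in LSD1i.

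Cib4, of a family of calcium- and integrin-binding proteins, had 129 and 185 fragments in LSD1i and no peak in Vehicle, and Cav3, the caveolin of muscle, had 119 and 161 and no peak. Intron 2 of 4 of Cd83, a surface protein of mature dendritic cells, had 141 and 176 and no peak. Weaker gains of the same kind were those of Dnah7a, an axonemal dynein (63 and 77), Ccdc25 (54 and 71), Tram1 (40 and 52), Flrt3 (41 and 37) and Ccser2 (16 and 27). The promoter of C1qtnf3, a secreted protein related to complement C1q (chromosome 15, 10952928 to 10954068), had the most fragments of the 12, 292 and 354 in LSD1i, against no peak in Vehicle replicate 1 and 29 fragments in Vehicle replicate 2. C1qtnf3 was thus the one of the 12 with a peak in any Vehicle library.

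The authors' deposited table for this comparison, whose scaling is not given in the sources used here, lists 3518 opened regions (6.81% of the 51631 tested there) and 17729 closed ones (34.3%). The lists differed in which libraries had a peak. Of its opened regions 1103 (31.4%) had a peak in both LSD1i libraries and in no Vehicle library, 505 (14.4%) in 1 Vehicle library and 1905 (54.2%) in all 4 libraries, and their median log2 fold was 1.21, 0.92 and 0.65. Of its closed regions 16284 (91.8%) had a peak in all 4 libraries and 678 (3.82%) in both Vehicle libraries only. A log2 fold of 1 or more was reached by 1276 opened and 623 closed regions, and of 2 or more by 220 and 2. Where both measures existed, 1326 of 1921 regions listed as opened also opened by summit signal and 0 closed, and 842 of 16319 regions listed as closed also closed and 0 opened. At the listed closed regions the summit signal was lower in LSD1i for 95.8%, with a median of -0.22, so many of the small closures of the deposited table did not pass the limma test. Both measures rest on the same 4 libraries.

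The share called in each direction changed with distance from genes. Within 1 kb of a gene start 0.771% of 10767 regions opened and 1.71% closed, against 4.00% and 2.05% of all tested regions. The share that opened was 3.66% at 1 to 10 kb, 4.89% at 10 to 50 kb, 6.32% at 50 to 200 kb and 10.1% beyond 200 kb, where 6 of 1332 regions closed (0.45%). The median difference followed the same order, from -0.16 (log2) within 1 kb to 0.21 beyond 200 kb. Strength of the site moved with distance. The median difference was 0.15 among the 10331 regions with the lowest mean signal and -0.16 among the 10331 with the highest. In those sets it was 0.1 and -0.18 near a gene start, and 0.15 and -0.11 elsewhere. The parts of distance, site strength and the lower enrichment in LSD1i were not tested. Among the 10331 regions with the highest mean signal, 0.128% of the 7033 near a gene start opened and 0.739% closed, against 1.97% and 2.37% of the 3298 others. Among the 10331 with the lowest mean signal, 3.88% of the 490 near a gene start opened, against 3.75% of the 9841 others, so the order did not hold in the weakest sites. The mean promoter signal minus the mean distal signal was 1.78 and 1.65 (log2) in LSD1i, against 2.03 and 1.84 in Vehicle, a difference of -0.23 with no overlap. An exact two-sided permutation test gave the smallest p that 2 against 2 libraries allow, which is above 0.05. The chromosomes were not alike either. Chromosome 13 had the highest share of opened regions, 5.74% of 1829, and the X chromosome the lowest of those with over 100 regions, 1.93% of 827.

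**Figure D2:**
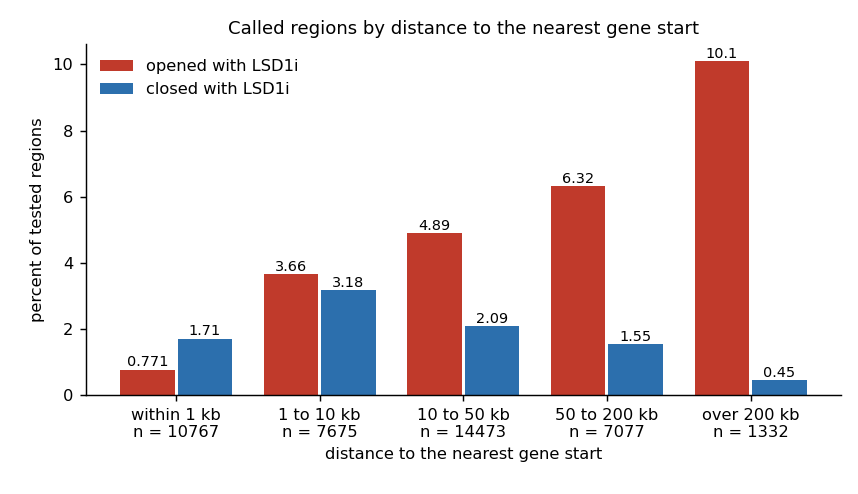
Percent of tested regions that opened (red) or closed (blue) with GSK-LSD1, in 5 bins of distance to the nearest gene start, with the number of regions under each bin. The opened share is 0.771% within 1 kb and 10.1% beyond 200 kb, and the closed share is highest, 3.18%, at 1 to 10 kb.

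Opening of a distal region went with little change at the promoter of its nearest gene. Of 742 genes with an opened distal region and a tested promoter, the promoter opened in 28 (3.77%), closed in 6 and was not called in 708, with a median of -0.11 (log2). Of all 10427 genes with a tested promoter, 82 opened (0.786%) and 183 closed (1.76%). Of 458 genes with a closed distal region, 1 promoter opened and 18 closed (3.93%). The promoter calls thus leaned the way of the distal region, but in a small minority of genes. Expression was not measured in these files.

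Among opened promoters, Tarm1, shown above, had 161 and 172 fragments at its promoter in LSD1i, against 52 and 63 in Vehicle (1.65 ± 0.18 on the log2 scale, limma adjusted p = 3.22e-07). The Il16 promoter had 143 and 181 fragments in LSD1i, against 79 and 78 in Vehicle (1.15 ± 0.16, limma adjusted p = 1.98e-05). The P2rx7 promoter had 396 and 454 fragments in LSD1i, against 229 and 276 in Vehicle (0.87 ± 0.14, limma adjusted p = 0.000185). Of these, P2rx7 was already widely open in Vehicle, and its gain was the smallest of the 3 in log2.

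The Mmp8 promoter had 196 and 243 fragments in LSD1i, against 84 and 92 in Vehicle. Other opened promoters were those of Prkcz, an atypical protein kinase C (80 and 120 in LSD1i, against 26 and 31 in Vehicle), Mgst1, a glutathione transferase (83 and 93, against 34 and 36), and Rbm47, an RNA-binding protein (209 and 266, against 114 and 108). Each of these 7 promoters held its call in every omission of 1 library. By depth alone Tarm1 and Prkcz stayed past the threshold, and the others did not (adjusted p = 0.937 for P2rx7, 0.486 for Il16, 0.463 for Rbm47, 0.178 for Mmp8 and 0.0582 for Mgst1). Snai2, a transcription factor of cell migration (61 and 61, against 17 and 29), lost the call without LSD1i replicate 1 (limma adjusted p = 0.0631). Edn1, the vasoactive peptide endothelin (46 and 59, against 18 and 24), lost it without Vehicle replicate 1 or either LSD1i library (largest adjusted p = 0.0806). Prkcz, Mgst1, Rbm47, Snai2 and Edn1 were chosen after their values were seen, as were the promoters of Vasn and Sema4a that follow.

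Among closed promoters, the Lipt1 promoter had 113 and 127 fragments in LSD1i, against 231 and 209 in Vehicle (-0.76 ± 0.14, limma adjusted p = 0.00086). The Chac1 promoter had 155 and 170 fragments in LSD1i, against 300 and 299 in Vehicle, and lost its call without LSD1i replicate 2 (limma adjusted p = 0.0534). The Synrg promoter had 72 and 108 fragments in LSD1i, against 248 and 138 in Vehicle (-0.95 ± 0.20), and lost its call without Vehicle replicate 1 or LSD1i replicate 1 (largest adjusted p = 0.199). Vehicle replicate 1 was the higher Vehicle library at Lipt1 and much the higher at Synrg.

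A promoter shared by Vasn and Dnaja3, a mitochondrial chaperone, had 63 and 63 fragments in LSD1i, against 162 and 157 in Vehicle (-1.23 ± 0.16, limma adjusted p = 1.07e-05), and the promoter of Sema4a, a semaphorin of immune cells, had 106 and 140, against 276 and 213 (-0.88 ± 0.16, limma adjusted p = 0.000588). Both calls held without any 1 library. By depth alone all 5 of these closed promoters missed the threshold, with adjusted p from 0.0805 (Vasn and Dnaja3) to 0.772 (Chac1).

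Genes of the LSD1 complex itself held 5 called regions, each changed by less than 1 on the log2 scale. At the promoter of Kdm1a the summit had 210 and 227 fragments in LSD1i, against 272 and 220 in Vehicle (-0.05 ± 0.16, limma adjusted p = 0.881). Of 8 tested regions of Gfi1, the recruiter of LSD1 in myeloid cells, 1 rose, with 274 and 332 fragments in LSD1i, against 254 and 220 in Vehicle (0.47 ± 0.14, limma adjusted p = 0.0437). Of 3 regions of Gfi1b, its erythroid paralogue, 2 rose, at 182 and 237 fragments in LSD1i, against 170 and 136 in Vehicle (0.56 ± 0.16, limma adjusted p = 0.0271), and at 40 and 36, against 21 and 21 (0.97 ± 0.30, limma adjusted p = 0.047). The Gfi1b promoter itself had 295 and 319 fragments in LSD1i, against 251 and 255 in Vehicle (limma adjusted p = 0.105). Regions nearest to other gene models lie around it. A run of 5 opened regions of the authors' deposited table spans 39.7 kb there (chromosome 2, 28590954 to 28630620), with log2 folds of 0.36 to 1.78 in the authors' deposited table, and 5 of the 6 regions tested by limma in that stretch, on the same 4 libraries, opened.

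Of 5 regions of Rcor1, which encodes CoREST1, 1 fell, with 175 and 164 fragments in LSD1i, against 255 and 256 in Vehicle (-0.48 ± 0.14, limma adjusted p = 0.0404). These calls were weak. Gfi1 and the stronger Gfi1b region held only without Vehicle replicate 1 (largest adjusted p over the omissions 0.282 and 0.283), and the other Gfi1b region and the Rcor1 region held in no omission (largest 0.349 and 0.506). By depth alone these 4 calls were lost (adjusted p = 0.463 to 0.937). In the whole list of 14 genes of the complex 4 of 36 regions opened (11.1%) and 1 closed (2.78%), against 4% and 2.05% of all regions. The authors' deposited table lists 3 opened and 10 closed regions for the same list, beside 3518 opened and 17729 closed regions over all genes. The master regulators Spi1 (3 regions), which encodes PU.1, and Cebpa (2 regions) and the integrin gene Itgam (5 regions) had no called region. At the Cebpa promoter the summit had 515 and 518 fragments in LSD1i, against 539 and 674 in Vehicle, and at the strongest Spi1 region 418 and 426, against 448 and 506.

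Among mature myeloid lists, neutrophil maturation genes had 3 of 29 regions opened (10.3%) and 0 closed, beside 4% and 2.05% of all regions. The 3 were at Mmp8, Fpr1 and Chil3. The Fpr1 call held only without Vehicle replicate 2 (largest adjusted p = 0.228), and the Chil3 call was lost without Vehicle replicate 1 or LSD1i replicate 2 (largest 0.604). The authors' deposited table lists 4 opened and 1 closed region for this list. Dendritic cell and antigen presentation genes had 6 of 52 opened (11.5%) and 0 closed, beside the same shares of all regions. The 6 were at Cd83, Ccr7, Cd86, Tcf4 and Zbtb46. For this list the authors' deposited table has 15 opened and 3 closed regions. Over all regions it has 3518 opened and 17729 closed ones. Upstream of Cd83 (chromosome 13, 43765168 to 43765954) the summit had 103 and 155 fragments in LSD1i, against 37 and 56 in Vehicle (1.59 ± 0.27, limma adjusted p = 0.000285). Near Ccr7, a chemokine receptor for homing to lymph nodes, it had 43 and 65 fragments in LSD1i, against 28 and 25 in Vehicle (1.11 ± 0.28, limma adjusted p = 0.0139). Near Cd86, a co-stimulatory ligand, it had 72 and 74 fragments in LSD1i, against 45 and 43 in Vehicle (0.84 ± 0.24, limma adjusted p = 0.0316). The Cd83 call held in every omission, the Ccr7 call only without Vehicle replicate 1 (largest adjusted p = 0.249) and the Cd86 call in none (largest 0.272). By depth alone the Cd83 call stayed, and those of Ccr7 and Cd86 were lost (adjusted p = 0.275 and 0.83). The promoters of Cd83 and Zbtb46 had no peak in any of the 4 libraries, so their gains lay away from the gene start.

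Monocyte and macrophage genes had 1 of 41 regions opened and 1 closed. The closed one, near Fcgr1, an Fc receptor, had 26 and 37 fragments in LSD1i, against 48 and 75 in Vehicle (-0.84 ± 0.26, limma adjusted p = 0.049, held only without Vehicle replicate 1, largest 0.325). Primary granule genes had 0 of 11 regions called, NADPH oxidase genes 0 of 17, and myeloid transcription factors 3 of 161 opened and 2 closed. The authors' deposited table lists many more closures for these lists. It has 8 closed and 0 opened regions of primary granule genes, 13 and 0 of NADPH oxidase genes, and 46 and 2 of myeloid transcription factors. Over all regions it has 17729 closed and 3518 opened ones. The regions of myeloid transcription factors that opened by limma were at Irf4, Irf5 and Klf6. Pattern recognition genes had 2 of 51 opened, at Tlr2 and Tlr7, an endosomal receptor for RNA, whose region in intron 2 of 4 had 67 and 85 fragments in LSD1i, against 33 and 49 in Vehicle (1.02 ± 0.28, limma adjusted p = 0.0228, held only without Vehicle replicate 2, largest 0.26). The opened shares of these 5 lists, 0% to 3.92%, lay below the 4% of all regions. The Fcgr1 and Tlr7 calls were lost by depth alone (adjusted p = 0.279 and 0.471).

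Lists of signalling genes held large single changes, besides that of Dock4. In intron 2 of 10 of Il1r1 (chromosome 1, 40283840 to 40284984), the receptor of interleukin 1, the summit had 129 and 133 fragments in LSD1i, against 29 and 38 in Vehicle, a rise of 2.09 ± 0.24 (log2, limma adjusted p = 1.18e-06). Near Spry2, a feedback inhibitor of receptor tyrosine kinases, it had 94 and 122 fragments in LSD1i, against 40 and 44 in Vehicle (1.47 ± 0.20, limma adjusted p = 2.48e-05). In an intron of Arhgef3, a guanine nucleotide exchange factor, it had 122 and 176 fragments in LSD1i, against 67 and 76 in Vehicle (1.15 ± 0.17, limma adjusted p = 5.16e-05). Near Cd9, a tetraspanin, it had 198 and 280 fragments in LSD1i, against 118 and 117 in Vehicle (1.12 ± 0.17, limma adjusted p = 5.16e-05). All 4 of these calls, and those at Zap70 and at the stronger of 2 called regions of Cd44 and of Dock4, held in every omission of 1 library. The weaker Cd44 and Dock4 regions held only without Vehicle replicate 2 (largest adjusted p = 0.563 and 0.411). By depth alone the calls at Il1r1, Zap70 and the stronger Dock4 region stayed, and those at Spry2 (adjusted p = 0.072), Arhgef3 (0.463), Cd9 (0.6) and the stronger Cd44 region (0.14) were lost.

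As lists, MAP kinase feedback genes had 6 of 81 regions opened (7.41%) and 3 closed (3.7%), against 4% and 2.05% of all regions, and members went both ways. Dusp10, a phosphatase of p38 and JNK, had 63 and 72 fragments in LSD1i, against 21 and 34 in Vehicle (1.45 ± 0.30, limma adjusted p = 0.00262), and its call held only without Vehicle replicate 2 (largest adjusted p = 0.071). Dusp2 had 39 and 50 fragments in LSD1i, against 177 and 61 in Vehicle (-1.12 ± 0.26, limma adjusted p = 0.00732), a fall set largely by Vehicle replicate 1 and lost without it (largest adjusted p over the omissions 0.543). Scaled by depth alone, the Dusp10 call stayed and the Dusp2 call was lost (adjusted p = 0.156). Cytokine and chemokine receptor genes had 5 of 119 opened (4.2%, near the share of all regions) and 1 closed, genes of actin cytoskeleton signalling 7 of 131 opened (5.34%) and 2 closed, adhesion and integrin genes 4 of 85 opened and 3 closed, NF-kB genes 2 of 67 opened and 0 closed, and progenitor and self-renewal genes 2 of 114 opened and 2 closed. The authors' deposited table lists more closed than opened regions for each of these 6 lists, for example 22 against 5 for MAP kinase feedback genes and 28 against 12 for the receptors. It does so over all regions too, with 17729 closed against 3518 opened, so the excess is not particular to these lists.

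Lists of other lineages and of housekeeping genes also held calls. Erythroid and megakaryocyte markers had 3 of 42 regions opened (7.14%) and 0 closed. Neuronal genes had 1 of 28 opened, mast cell, basophil and eosinophil markers 1 of 32 opened and 1 closed, B cell markers 1 of 29 opened, T and NK cell markers 1 of 19 opened and 1 closed, stromal and endothelial markers 0 of 31, and housekeeping genes 1 of 31 opened and 2 closed (6.45%), all beside 4% and 2.05% of all regions. The authors' deposited table lists 20 closed and 3 opened regions for the erythroid and megakaryocyte markers and 18 and 0 for the housekeeping genes. Over all regions it lists 17729 closed and 3518 opened ones. The lists held 11 to 161 tested regions, so 1 call moves the share of a short list a long way.

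**Figure D3:**
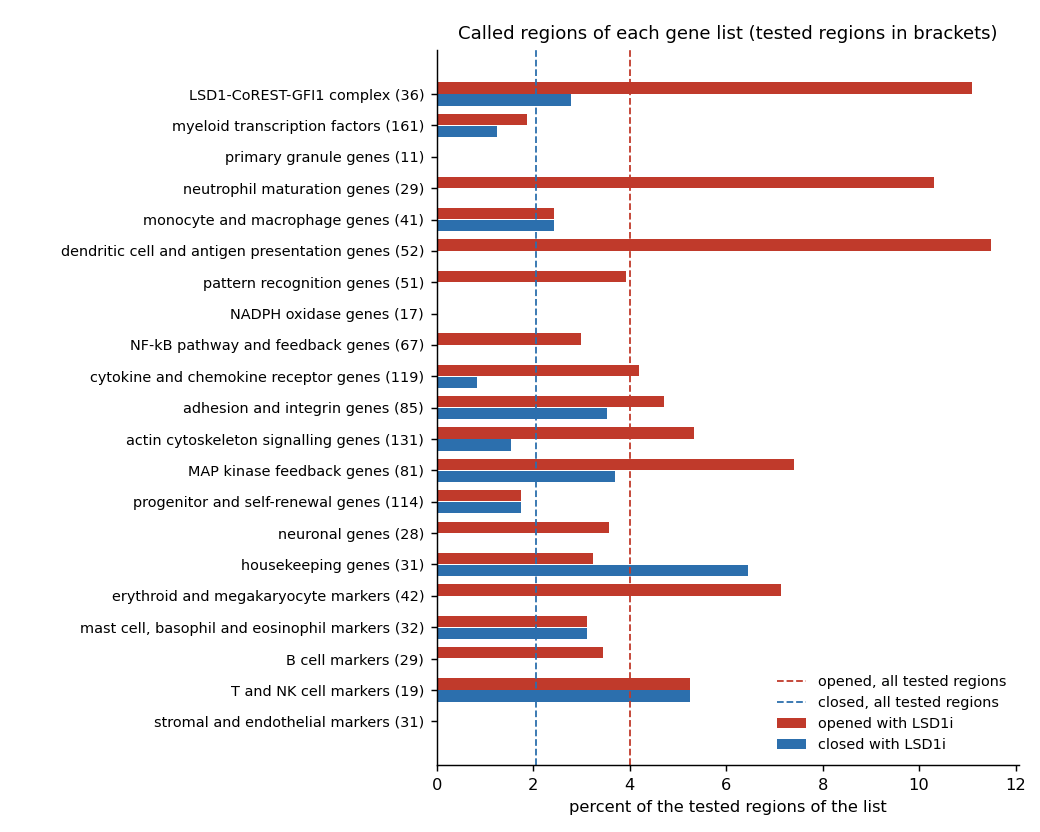
Percent of the tested regions of each of 21 gene lists that opened (red) or closed (blue) with GSK-LSD1; the number of tested regions stands in brackets and dashed lines mark all 41324 regions (4% and 2.05%). The opened share is above 10% for the LSD1 complex (11.1%), neutrophil maturation (10.3%) and dendritic cell genes (11.5%), from 3 to 6 regions each.

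Some opened regions lay in runs. Joining opened regions of the authors' deposited table that lie within 50 kb of the next with no closed region between gave 69 runs of 4 or more, holding 364 of the 3518. Since a run holds opened regions only and is built from the same 4 libraries, the absence of closed regions in it and the share opened by limma are no separate result. Runs are ranked here by their number of regions, and the 2 longest held 11 each. One spans 208 kb over Tcf7l2, a transcription factor of the Wnt pathway (chromosome 19, 55660097 to 55868273). Its region 142.9 kb from the run's first base, in intron 3 of 12, had 208 and 258 fragments in LSD1i, against 74 and 102 in Vehicle (1.53 ± 0.16 on the log2 scale, limma adjusted p = 3.22e-07), and that at 114.4 kb had 98 and 135, against 43 and 39 (1.60 ± 0.23, limma adjusted p = 3.15e-05). By depth alone the call at 142.9 kb was lost (adjusted p = 0.112) and that at 114.4 kb stayed. By summit signal 8 of the 13 tested regions in this stretch passed the limma test. The changes were spread along the locus, not held by 1 site.

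The other run of 11 lies on chromosome 13 (97441924 to 97608002, 166 kb) in a stretch with no protein-coding gene, and it held the largest gains of the 5 longest runs. The authors' deposited table gives folds of 0.7 to 3.89 there, with a median of 2.24, and 5 of its regions had a peak in both LSD1i libraries and no Vehicle library. The region 97.5 kb into the run had 101 and 145 fragments in LSD1i and no peak in Vehicle, and the region 91.8 kb into it had 167 and 181, against no peak in Vehicle replicate 1 and 44 fragments in Vehicle replicate 2. The strong gains lay together in the middle of the run, between 88.7 and 117.2 kb, with weaker ones on either side.

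A run of 10 regions over 208 kb joins Dusp22 and Irf4, which encodes a transcription factor of dendritic and lymphoid cells (chromosome 13, 30578860 to 30786796). Besides the Dusp22 exon described above, a region in intron 2 of 7 of Dusp22 had 60 and 71 fragments in LSD1i, against 17 and 15 in Vehicle (2.15 ± 0.29, limma adjusted p = 1.07e-05). A region annotated to the 3' end of Irf4 had 70 and 69 fragments in LSD1i, against 27 and 35 in Vehicle (1.29 ± 0.27, limma adjusted p = 0.00302), a call lost without LSD1i replicate 1 (adjusted p = 0.106). By depth alone the Irf4 call was lost too (adjusted p = 0.12) and both Dusp22 calls stayed. Both groups were tight at these regions, and none overlapped.

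Another run of 10 covers 199 kb of the Ms4a cluster, whose genes encode membrane proteins of blood cells (chromosome 19, 11361511 to 11560546), and 4 of its regions had a peak in LSD1i libraries only. In intron 1 of 3 of Ms4a4b the summit had 47 and 59 fragments in LSD1i, against 23 and 26 in Vehicle (1.22 ± 0.28, limma adjusted p = 0.00703, held only without Vehicle replicate 2, largest 0.116). At the promoter of Ms4a6c it had 41 and 50, against 24 and 26 (0.97 ± 0.27, limma adjusted p = 0.0295, held in no omission, largest 0.224). By depth alone both calls were lost (adjusted p = 0.155 and 0.502). The fifth run, 10 regions over 179 kb of chromosome 3 (38105490 to 38284227), again holds no protein-coding gene. Its region at 10.4 kb had 229 and 321 fragments in LSD1i, against 100 and 103 in Vehicle (1.53 ± 0.16, limma adjusted p = 3.22e-07, and 0.1 by depth alone).

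**Figure D4:**
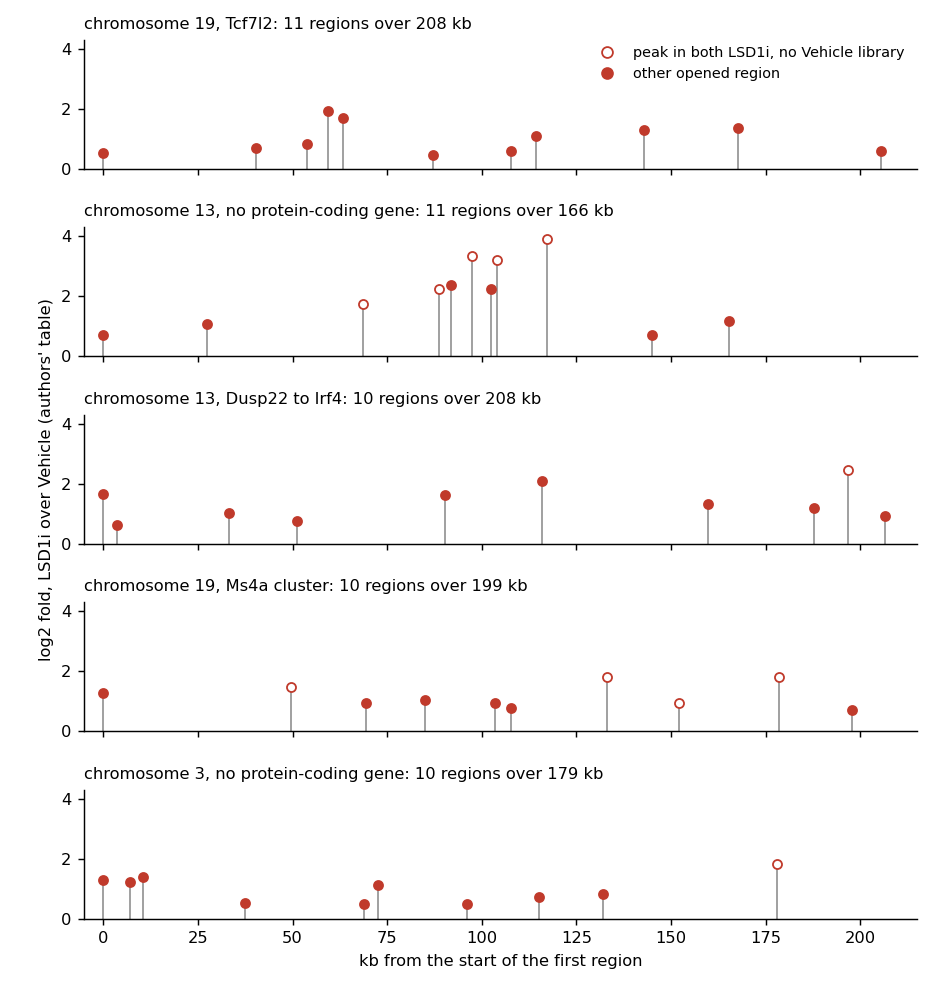
The 5 longest runs of opened regions by number of regions. Each region is drawn at its distance (kb) from the start of the first. Its height is the log2 fold of LSD1i over Vehicle from the authors' deposited table. Open circles had a peak in both LSD1i libraries and no Vehicle library. The chromosome 13 run without a protein-coding gene reaches 3.89 and holds 5 open circles, and the Tcf7l2 run reaches 1.93 with 0.

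Some genes gathered many changes. By the nearest gene, 1453 genes held an opened and 789 a closed region by summit signal, 26 held 3 or more opened ones, and 51 held both kinds. In the authors' deposited table the genes with the most opened regions included Cd83 and Myo18b, an unconventional myosin, with 6 each, and Epha2, Itprid2 and Nav2 with 5 each. Of the Cd83 regions, that at 43777500 to 43779246 had 49 and 53 fragments in LSD1i and that at its 3' end 29 and 33, with no peak in Vehicle for either. Upstream of Itprid2, which encodes an actin-binding protein, 1 region had 247 and 282 fragments in LSD1i, against 122 and 129 in Vehicle (1.19 ± 0.16, limma adjusted p = 1.59e-05), while its promoter had 602 and 611, against 560 and 626 (0.15 ± 0.19, limma adjusted p = 0.694). By depth alone that distal call was lost (adjusted p = 0.496). Distal sites of Itprid2 thus gained beside a promoter whose groups overlapped.

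The most closed regions, 13 each, were at Gse1 and Ptk2b, a focal adhesion kinase, with 12 at Rreb1 and 11 each at Ankrd11, Coro2a and Sept9. Most were small: at the 13 of Gse1 the authors' deposited table gives log2 folds of -0.86 to -0.24, and 2 passed the limma test, with 206 and 234 fragments in LSD1i, against 353 and 328 in Vehicle (-0.52 ± 0.15, limma adjusted p = 0.0288), and with 287 and 276, against 428 and 455 (-0.53 ± 0.15, limma adjusted p = 0.0288). The first held only without Vehicle replicate 2 (largest adjusted p = 0.245) and the second held in no omission of 1 library (largest 0.417), and by depth alone both were lost (adjusted p = 0.937). Ankrd11, a chromatin regulator, held a larger closure, with 38 and 44 fragments in LSD1i, against 89 and 91 in Vehicle at 122898358 to 122899345 of chromosome 8 (-1.02 ± 0.20, limma adjusted p = 0.00152), and that call held in all 4 omissions but was lost by depth alone (adjusted p = 0.176).

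Opposite changes at 1 gene are shown by Nav2, which encodes neuron navigator 2. In its intron 2 the summit at 49240143 to 49241916 of chromosome 7 had 159 and 170 fragments in LSD1i, against 46 and 49 in Vehicle (1.91 ± 0.27, limma adjusted p = 3.19e-05). At 49427945 to 49429557 of the same gene it had 47 and 53 fragments in LSD1i, against 125 and 130 in Vehicle (-1.24 ± 0.18, limma adjusted p = 5.16e-05). Both calls held in every omission, and by depth alone the opened one stayed and the closed one was lost (adjusted p = 0.0623). At Dgkz, a diacylglycerol kinase chosen after its values were seen, the promoter had 191 and 237 fragments in LSD1i, against 300 and 392 in Vehicle (-0.57 ± 0.14, limma adjusted p = 0.0124, held only without Vehicle replicate 1, largest 0.153), and a second site had 76 and 71, against 28 and 25 (1.59 ± 0.26, limma adjusted p = 0.000203, held in every omission). Tec, a kinase of immune receptor signalling likewise chosen after its values were seen, opened in intron 3 (89 and 119, against 55 and 63, a call lost without LSD1i replicate 2 with adjusted p = 0.0851) and closed at 3 other regions. The strongest of those had 56 and 64 fragments in LSD1i, against 142 and 140 in Vehicle (-1.12 ± 0.17, limma adjusted p = 8.36e-05) and held in every omission. Of the other closed regions of Tec, 1 lost its call without LSD1i replicate 1 (adjusted p = 0.167) and 1 without Vehicle replicate 1 or LSD1i replicate 1 (largest 0.142). By depth alone the closed Dgkz promoter (adjusted p = 0.937) and all 4 Tec regions (0.142 to 0.772) missed the threshold, and the opened Dgkz site did not.

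The Combo and CER libraries enter no mean of LSD1i over Vehicle, but they share its fit, so they also set the estimate of spread and the centring behind the calls. With the 4 libraries alone, 1636 of the 1654 opened and 775 of the 847 closed regions were called. Combo cells received GSK-LSD1 and CER cells did not, but they also differ by mercaptopurine. In Combo over CER, 2095 of 38734 regions opened (5.41%) and 2193 closed (5.66%). Of 1367 regions opened by LSD1i and tested there, 919 opened again (67.2%) and 0 closed, with a median of 0.80 (log2), and 98.8% were higher in Combo, against 36.7% of all regions tested. Over all regions tested the median was -0.12, and most were lower in Combo. Of 827 regions closed by LSD1i, 334 closed again (40.4%) and 0 opened. The median of the 827 was -0.44, and 94.2% of them were lower in Combo. The counts were 552 opened and 113 closed without CER replicate 1, 797 and 163 without CER replicate 2, 530 and 89 without Combo replicate 1, and 646 and 190 without Combo replicate 2.

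At the Dock4, Epha2 and Calhm1 regions, which are among the largest rises, the Combo libraries stood with LSD1i. The Dock4 region had 375 and 371 fragments in Combo, against 54 and 49 in CER, the Epha2 promoter 352 and 321, against 55 and 29, and the Calhm1 region 146 and 142, against 36 and no peak. Of the LSD1i-only peaks 71.8% and 69.1% were called in the Combo libraries, against 18.7% and 8.42% in CER, 9.83% and 11.8% in 6MP and 23.1% and 9.15% in Day0. Of the Vehicle-only peaks 44.7% and 47.3% were called in Combo, 56.9% and 23.1% in CER, 24.2% and 40.6% in 6MP and 61.8% and 33.7% in Day0. Enrichment was highest in the Combo libraries (35.9 and 42.7 times background) and lowest in 6MP replicate 1 (16.9 times) and CER replicate 2 (23 times). Depth was lowest in Day0 replicate 2 (2.44 fragments) and 6MP replicate 2 (2.94). The parts of enrichment and depth in these shares were not tested.

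**Figure D5:**
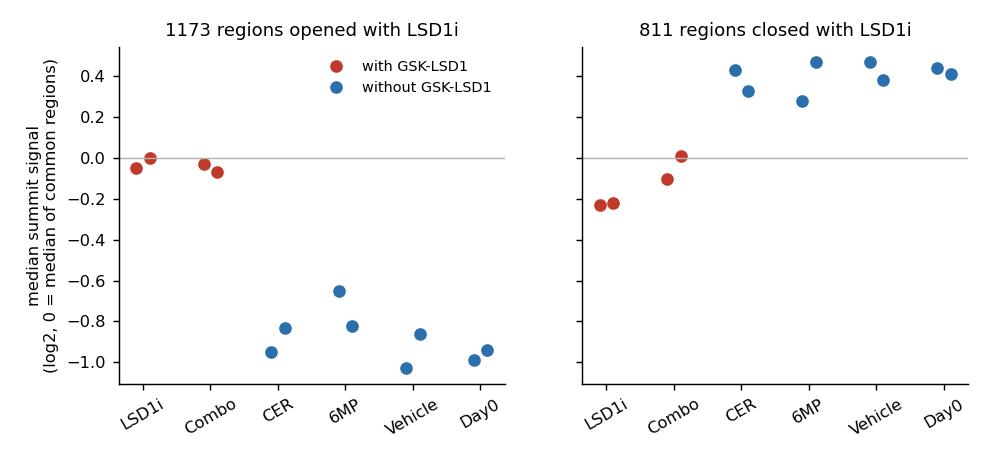
Median centred summit signal (log2) in each of the 12 libraries at the 1173 opened (left) and 811 closed (right) regions that all libraries share; red points are libraries of cells that received GSK-LSD1, blue points the others. At opened regions the LSD1i libraries stand at -0.05 and 0 and the Combo libraries at -0.03 and -0.07, against -1.03 to -0.65 in the other 8. At closed regions Combo lies between, at -0.1 and 0.01. LSD1i stands there at -0.23 and -0.22 and the other 8 at 0.28 to 0.47. LSD1i and Vehicle chose the regions.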

How the data were processed

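ATAC-seq was measured in 12 libraries, of which the 2 LSD1i and the 2 Vehicle libraries were compared, grouped by their labels. Tools listed in the submitters' processing notes are MACS2 2.1.2, DiffBind, Bowtie2, Trimmomatic 0.38, Picard 2.18.26 and SAMtools 1.9, on the build mm10. Their settings and order are not given in the sources used here. The deposited peak lists, called per library as deposited, hold for each summit a score, a ratio (the fold of the pileup over local background), and −log10 of a p-value and of a q-value. The authors' deposited table for this comparison holds log2 levels and a log2 fold (LSD1i minus Vehicle) with a p-value and FDR per region, replicates combined, and lists regions at an FDR of up to 0.05.

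From the ratio and −log10 p the whole number of fragments at each summit was solved, which gave whole numbers within 0.001 for 100% of summits. Depth, the smallest background of a library, ranged from 2.44 to 4.55 fragments over the 12 libraries. Peaks were merged into 73156 regions, and log2 of pileup over depth was centred on the median of the 33368 regions called in all libraries. A region needs a called peak in all 4 libraries to be tested, which leaves out sites open in 1 group only. limma 3.58.1 (R 4.3.3) fitted all 12 libraries together with a mean-dependent prior, and p-values were adjusted by Benjamini-Hochberg. These p-values rest on the spread between 2 biological replicates a group, pooled over all groups of the fit and moderated over regions. They do not rest on the spread of LSD1i and Vehicle alone. The fit was tested on simulated data. Python 3.11.15, numpy 2.4.6, pandas 2.3.3 and scipy 1.17.1 were used otherwise. Counting PCR fragments without molecular identifiers, pileups are not counts of independent molecules.

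Gene names of the deposited table were kept. Other regions took the nearest of 21900 protein-coding gene starts of RefSeq (GRCm38.p6). A promoter is a region within 1 kb of a start. The genes named were the 12 with the largest folds in the authors' deposited table and a peak in both LSD1i libraries; the 10 with the largest rise and the 10 with the largest fall by limma with groups apart, 1 region a gene; up to 4 a list, and 8 fixed genes; the 6 with the most opened and the 6 with the most closed regions; and those in the 5 longest runs. Some genes that these rules name are not reported here. Gene models named Gm or ending in Rik were skipped, and other genes are said to be chosen after their values were seen. Members and gene lists were chosen with earlier results of these data known. Alternatives were other scalings, priors, library sets, thresholds, overlaps and run gaps, and leaving out each library. Motif content was described in promoter windows, since no genome sequence was used here.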

Additional observations from a re-analysis of the deposited data

How the results depend on the processing

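By limma 1654 regions opened and 847 closed. The totals were 169 and 31 by depth alone (169 and 30 of them among those calls), 1311 and 325 with a prior that does not follow the mean (1149 and 289 among those calls), 2372 and 1845 without 6MP replicate 1 and CER replicate 2 (chosen after seeing the data), 2115 and 1104 with the 4 libraries alone, and 502 to 2014 and 140 to 1401 when 1 of the 4 libraries was left out. With the replicate number as a block the counts were 3304 and 2716 over the 4 libraries and 1700 and 877 over all 12. Same-numbered LSD1i and Vehicle libraries deviated together (r = 0.151), and the correlations of the other group pairs ran from -0.344 to 0.246. The lowest was that of Vehicle with Combo, whose names carry the letter R on opposite replicate numbers. The highest was that of Vehicle with CER, where R stands on replicate 1 of both. Neither LSD1i library carries the letter. The labels state no pairing, and whether number or letter marks a batch was not tested. Of the 95 called named regions, 65 could be tested among regions called in all 12 libraries, and all 95 in the other settings. The call was lost at 68 by depth alone, at 35 with the prior without a trend, at 18 with the letter term, at 24 to 65 when a library was left out and at 0 with the block over 4 libraries; the causes were not tested. At the LSD1i regions, Combo over CER gave 530 to 797 opened again, against 919, and 89 to 190 closed again, against 334, when 1 library was left out. In the authors' deposited table, a log2 fold of 1 or more left 1276 opened and 623 closed regions, with promoter shares of 19.7% and 31.9%, against 21.3% and 62.7%, and an FDR of 0.01 gave a closed promoter share of 66.8%. Counting a peak only where it covered at least 50% of the region gave 2528 Vehicle-only regions, against 1629. Gaps of 25 and 100 kb gave 33 and 107 runs. The planned motif search in windows at the summits was not run. Depth limits the peaks near 13 fragments, the smallest summit called.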
